A study of Mus musculus with 6 samples.

Results

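Oxidative phosphorylation in the mitochondrial inner membrane is carried out by complexes I, III and IV, which pass electrons from NADH to oxygen and pump protons, and by complex V, the ATP synthase, which uses the proton gradient. Complex II feeds electrons from succinate and pumps none. A few subunits of complexes I, III, IV and V are encoded in mitochondrial DNA and all others in the nucleus, so that subunits made in separate compartments have to be assembled together. Endothelial cells are known to draw much of their ATP from glycolysis, and their respiratory chain is known to support biosynthesis and proliferation.

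The genes described are the nuclear-encoded subunits of complexes I, III, IV and V. They were chosen by symbol, namely Ndufa, Ndufb, Ndufc, Ndufs, Ndufv, Uqcr and Atp5 genes and the Cox4 to Cox8 genes, without the Ndufaf assembly factors and without the muscle isoforms Cox8b and Cox7a1. There were 76 such genes among the 18193 genes with at least 1 probe set of their own, with 36 in complex I, 8 in complex III, 15 in complex IV and 17 in complex V. The 76 genes had 158 probe sets, and the probe set with the highest mean over all arrays represented each gene. Ndufs6, Ndufa11, Ndufb4b and Ndufb4c fit the rule by name but shared their probe sets with other genes, so they were not analysed here. Ndufa4 was counted in complex I by its symbol, although its protein is known as a subunit of complex IV.

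RNA came from endothelial cells that were sorted with an antibody to CD31 out of the mammary glands of FVB/N mice aged 9 weeks, with 3 samples in each group and 1 one-colour Affymetrix array per sample. Control mice were PyMT;Ets2db/loxP and deleted mice were PyMT;Fsp-cre;Ets2db/loxP. All 6 mice therefore carried PyMT, the polyoma middle T oncogene, one floxed Ets2 allele and Ets2db, a conventional knockout allele that targets the DNA-binding domain. Only the deleted group carried Fsp-Cre, a recombinase driven by the promoter of Fsp1 (S100a4), which is used to target fibroblasts. For the controls the labels disagree, since the source field gives no oncogene while the genotype, title and description give PyMT. They were taken by genotype. The comparison asked how loss of Ets2, an Ets family transcription factor, from fibroblasts affects expression in the endothelial cells next to them. Values are log2 signals from RMA (Robust Multichip Average), and differences are given as deleted minus control on that log2 scale, so that a negative value means a lower mean in deleted samples. Signals of different probe sets cannot be ranked as abundances of their transcripts. In bulk samples such as these, fewer cells of a type and less RNA per cell cannot be told apart.

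Ets2 itself differed by 0.02 (SE 0.14) in the sorted cells, which were not the target of the deletion, so it does not check the labels. All 12 endothelial markers, Pecam1 (CD31) included, lay above the median signal of 7.03. All 12 epithelial markers did so too, with Krt8, a luminal keratin, at 13.45 to 14.15 and Csn3, a milk casein, at 14.55 to 14.68 over the 6 arrays. Of the macrophage markers 10 of 11 and of the fibroblast markers 9 of 12 were above that median, against 3 of 14 skeletal and cardiac muscle markers. So were 11 of 12 pericyte and smooth muscle, 5 of 10 lymphocyte and 3 of 10 adipocyte markers. Each gene was represented by its brightest probe set, and 11288 of all 18193 genes lay above that median. The arrays thus held RNA with epithelial markers besides endothelial ones. The counts of the other types do not by themselves show such RNA, but some of their markers were bright on all 6 arrays. Among them, Rgs5 of the pericyte list read 13.38 to 13.96. Col1a1 of the fibroblast list read 11.97 to 12.71 and Lyz2 of the macrophage list 11.57 to 12.07.

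Before the values, 8 promoters are shown, because nuclear genes of the respiratory chain are known targets of NRF1 and of Ets family factors such as GABP. RefSeq windows of 300 bases, from 250 before to 50 after the start site on GRCm38.p6, were at hand for 62 of the 76 genes. Both strands were searched for an Ets core, CCGGAAG, and an NRF1 core, GCATGCGC. The Ets core was in the windows of 15 of the 62 genes (24.2%), against 15% of the 14369 array genes with a window and 9.93% of all 27025 genes with a window. It was found in 4 of 32 genes of complex I, 2 of 5 of complex III, 3 of 10 of complex IV and 6 of 15 of complex V. The NRF1 core was in those of 8 of the 62 genes (12.9%), against 4.7% of array genes and 3.05% of all genes with a window. The windows of 4 of the 62 genes (6.45%) held both cores, against 0.995% of array genes. A match is a description of the letters and not a measured binding site, and a window without a match says nothing about the factors.

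Among genes above the median signal with a core before the start site, the following 4 had the widest spread over the 6 arrays. Capitals mark the core, and each run of 70 bases is written 5′ to 3′ along the gene's own strand.
Ndufb7, complex I, chr8:83566688-83566757, plus strand, Ets core: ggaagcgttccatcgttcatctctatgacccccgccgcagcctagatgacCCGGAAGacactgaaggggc
Ndufa6, complex I, chr15:82354335-82354404, minus strand, NRF1 core: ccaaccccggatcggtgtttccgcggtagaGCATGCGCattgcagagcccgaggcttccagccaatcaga
Cox6b1, complex IV, chr7:30626115-30626184, minus strand, Ets core: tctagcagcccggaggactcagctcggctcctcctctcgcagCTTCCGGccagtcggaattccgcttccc
Uqcr11, complex III, chr10:80406848-80406917, minus strand, Ets core: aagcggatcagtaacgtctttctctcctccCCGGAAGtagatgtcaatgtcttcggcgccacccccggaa

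The next 4 had the narrowest spread among the same genes. In Atp5g2 the NRF1 core lies on both strands in overlap.
Cox6a1, complex IV, chr5:115348959-115349028, minus strand, Ets core: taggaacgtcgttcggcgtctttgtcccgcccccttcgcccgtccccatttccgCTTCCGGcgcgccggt
Ndufs3, complex I, chr2:90904722-90904791, minus strand, Ets core: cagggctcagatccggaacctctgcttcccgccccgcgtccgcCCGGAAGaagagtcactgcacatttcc
Atp5h, complex V, chr11:115419920-115419989, minus strand, Ets core: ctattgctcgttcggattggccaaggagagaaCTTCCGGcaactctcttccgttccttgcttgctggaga
Atp5g2, complex V, chr15:102671050-102671119, minus strand, NRF1 core: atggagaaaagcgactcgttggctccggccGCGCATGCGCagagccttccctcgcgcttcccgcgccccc

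Range here is the highest minus the lowest log2 signal over the 6 arrays. It was 0.92 for Ndufb7, 0.91 for Ndufa6, 0.75 for Cox6b1 and 0.71 for Uqcr11, against 0.19 for Cox6a1, 0.23 for Ndufs3, 0.34 for Atp5h and 0.35 for Atp5g2. The range of these genes is a property of all 6 arrays and not of the 2 groups. Bright probe sets of an array can be compressed towards the top of the scale, so a narrow range at a high signal, as for Cox6a1 at 13.88 to 14.08, describes the signal and need not hold for the RNA.

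No subunit gene differed between the groups by the test. limma's moderated test, adjusted by Benjamini-Hochberg over all 45037 probe sets, called 0 of the 76 genes, as it called 0% of all genes, and the smallest adjusted p was 0.9999. At the thresholds of the study, more than a 2-fold change together with an unadjusted p under 0.05, none passed either, against 0.0934% of all genes. An unadjusted p under 0.05 alone was reached by none of the 76 and by 1.79% of all genes. The 95% intervals, which are not adjusted for the number of probe sets, reached 0.47 to either side of the difference in the median gene. Smaller log2 differences could not be detected in such a gene with 3 arrays a group, and the adjusted test needs larger ones. Over all genes it called none, although the differences ran from -1.83 to 1.66. Among the 76 genes no difference between the groups was larger than 0.42 in either direction.

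Of the 76 genes 48 had a lower mean in deleted samples and 28 a higher one, and the median difference was -0.03, beside 49.1% lower and a median of 0.00 over all genes. Complex I had 26 of 36 genes lower with a median difference of -0.10, and complex III had 7 of 8 lower with a median of -0.05. Complex IV had 8 of 15 lower (median -0.01) and complex V 7 of 17 (median 0.01). These counts turned with single arrays. Without control replicate 3 only 24 of the 76 genes were lower, without deleted replicate 1 there were 31, and without deleted replicate 2 there were 60. The complex I count fell to 13 without control replicate 3.

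**Figure D1:**
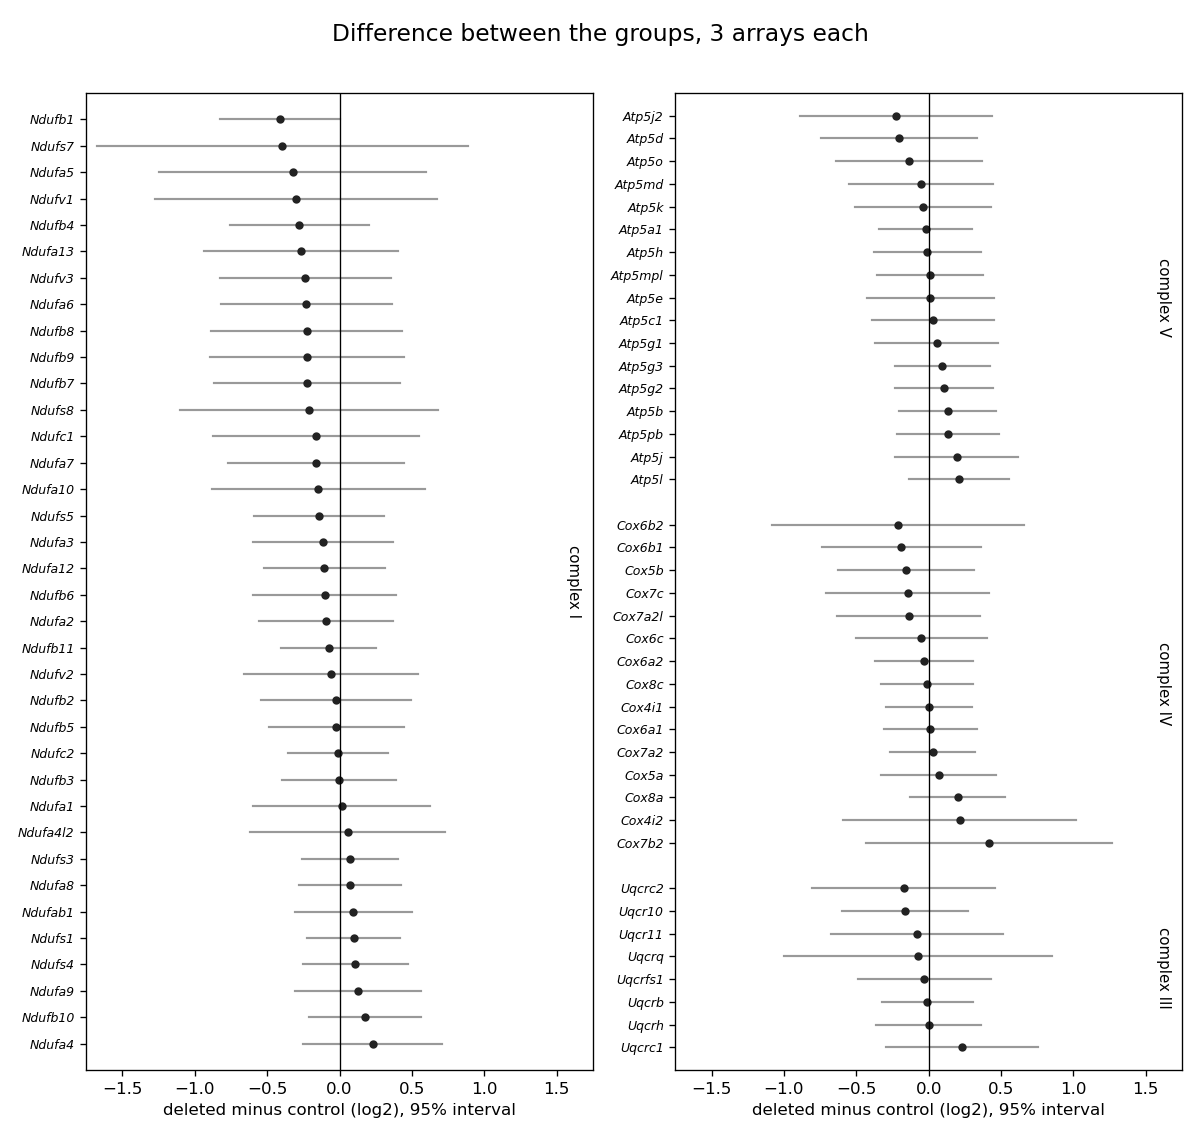
Difference between deleted and control means on the log2 scale (x axis) for each of the 76 genes (y axis, by complex), with 95% intervals from limma as grey lines and 3 arrays per group. The interval of every gene reaches 0, and the points lie between -0.41 (Ndufb1) and 0.42 (Cox7b2).

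The genes shared much of their spread within the groups. Over the 6 arrays the mean deviation of the 76 genes from their own means was -0.18, 0.06 and 0.20 in control replicates 1 to 3 and -0.16, 0.25 and -0.15 in deleted replicates 1 to 3. Control replicate 3 and deleted replicate 2 were thus high, and control replicate 1, deleted replicate 1 and deleted replicate 3 low, so that the groups overlapped. Deleted replicate 2 was the highest of the deleted arrays in 63 of 76 genes (82.9%), against 37.2% of all genes and 40.8% of genes above the median signal. Control replicate 1 was the lowest control array in 57 genes (75%), against 36.8% of all genes and 43% of genes above the median signal. Control replicate 3 was the highest control array in 47 (61.8%), against 42.6% and 47.6%. Control replicate 3 and deleted replicate 2 both exceeded all of the 3 low arrays in 52 genes (68.4%), against 21.5% of all genes and 27.2% of genes above the median signal. Complex IV had this order in only 6 of 15 genes (40%), and complex I in 29 of 36. Deleted replicate 2 was the highest of all 6 arrays in 38 genes (50%), against 17.1% of all genes, and the lowest in 0, against 17.9%. These orders were chosen after the values were seen and are given without a test.

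**Figure D2:**
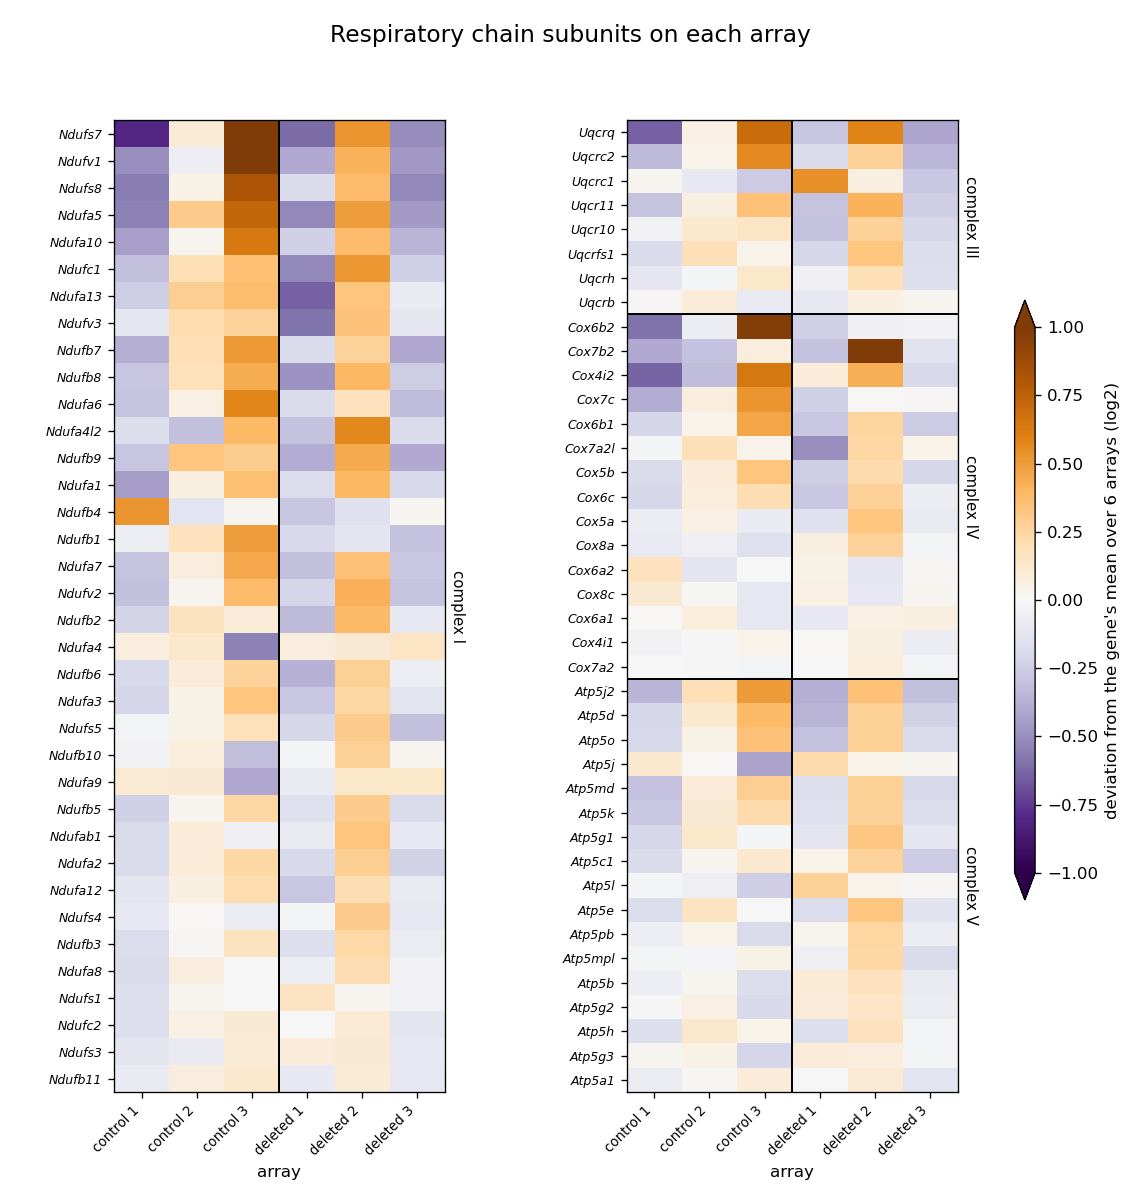
Deviation of each gene from its own mean over the 6 arrays (colour, log2 scale, with values beyond 1 at the end colours), with arrays in columns, genes in rows and each complex sorted from the widest range to the narrowest. Most rows are orange in control replicate 3 and deleted replicate 2 and purple in control replicate 1, deleted replicate 1 and deleted replicate 3, and the rows at the foot of each complex are nearly white.

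Complex I, the NADH dehydrogenase and entry point of the chain, had the widest movement between arrays. Its mean deviation was -0.21, 0.08 and 0.28 in control and -0.24, 0.28 and -0.19 in deleted replicates 1 to 3. Ndufs7, a core subunit that carries an iron-sulfur cluster, had the widest range of all 76 genes. It read 11.68, 12.58 and 13.78 in control and 11.86, 13.01 and 11.97 in deleted samples. Control replicate 3 was the highest and control replicate 1 the lowest array, and all 3 deleted values lay within the range of the controls. Its difference was -0.40 (SE 0.54). A dimmer probe set of Ndufs7 repeated the order of the controls, at 9.66, 10.16 and 11.36, beside 9.96, 10.59 and 9.78 in deleted samples.

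Ndufv1, the subunit that binds NADH and FMN, read 11.11, 11.54 and 12.61 in control and 11.20, 12.02 and 11.14 in deleted samples. It was high on the same 2 arrays, and its difference was -0.30 (SE 0.41). Ndufs8, an iron-sulfur subunit encoded near Ndufv1 on chromosome 19, had a range of 1.38. Ndufa5, an accessory subunit of the matrix arm, read 11.90, 12.74 and 13.18 in control and 11.92, 12.94 and 11.99 in deleted samples, with a difference of -0.32 (SE 0.39). The 3 low arrays of Ndufa5 lay within 0.1 of each other, while control replicate 2 joined the high ones. Control replicate 2, control replicate 3 and deleted replicate 2 were all above the other 3 arrays in 27 of the 36 genes of complex I and in 46 of all 76 genes (60.5%). This order held in 12.9% of all genes and in 17.4% of genes above the median signal. Complex III had it in 6 of 8 genes and complex V in 10 of 17, but complex IV in only 3 of 15 (20%).

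Not all genes of complex I moved in this way, as Ndufs1 and Ndufa4 show. Ndufs1, the largest core subunit and an iron-sulfur protein of the NADH module, read 10.81, 10.99 and 10.97 in control and 11.14, 10.99 and 10.94 in deleted samples (difference 0.10, SE 0.14). Ndufa4 read 11.15, 11.21 and 10.53 in control and 11.15, 11.19 and 11.23 in deleted samples. Control replicate 3 was here the lowest array and the other 5 lay within 0.1, so that the difference of 0.23 (SE 0.20) was 0.01 without that array. Ndufa4l2, a relative of Ndufa4 that is induced in hypoxia, had a lower signal with a wide spread, at 8.32, 8.18 and 8.87 in control and 8.18, 9.06 and 8.30 in deleted samples (difference 0.06, SE 0.29). Unlike Ndufs1 and Ndufa4, it was high on control replicate 3 and deleted replicate 2.

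Ndufb1, a small accessory subunit of the membrane arm, was the gene of complex I with the largest difference. It read 6.79, 7.02 and 7.34 in control and 6.64, 6.73 and 6.54 in deleted samples. All 3 deleted values lay below all control values, as in 2.7% of all genes, and Ndufb1 was the only one of the 76 genes for which this held. The difference was -0.41 (SE 0.18, unadjusted p = 0.0507 and adjusted p = 0.9999 by limma). Its mean lay below the median signal of the arrays, where RMA values hold much background. Of all 158 probe sets 1 had an unadjusted p under 0.05 (0.633%, against 2.07% of all probe sets), a dim probe set of Ndufs4 with a difference of -0.49, whereas the brightest Ndufs4 probe set differed by 0.11.

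**Figure D3:**
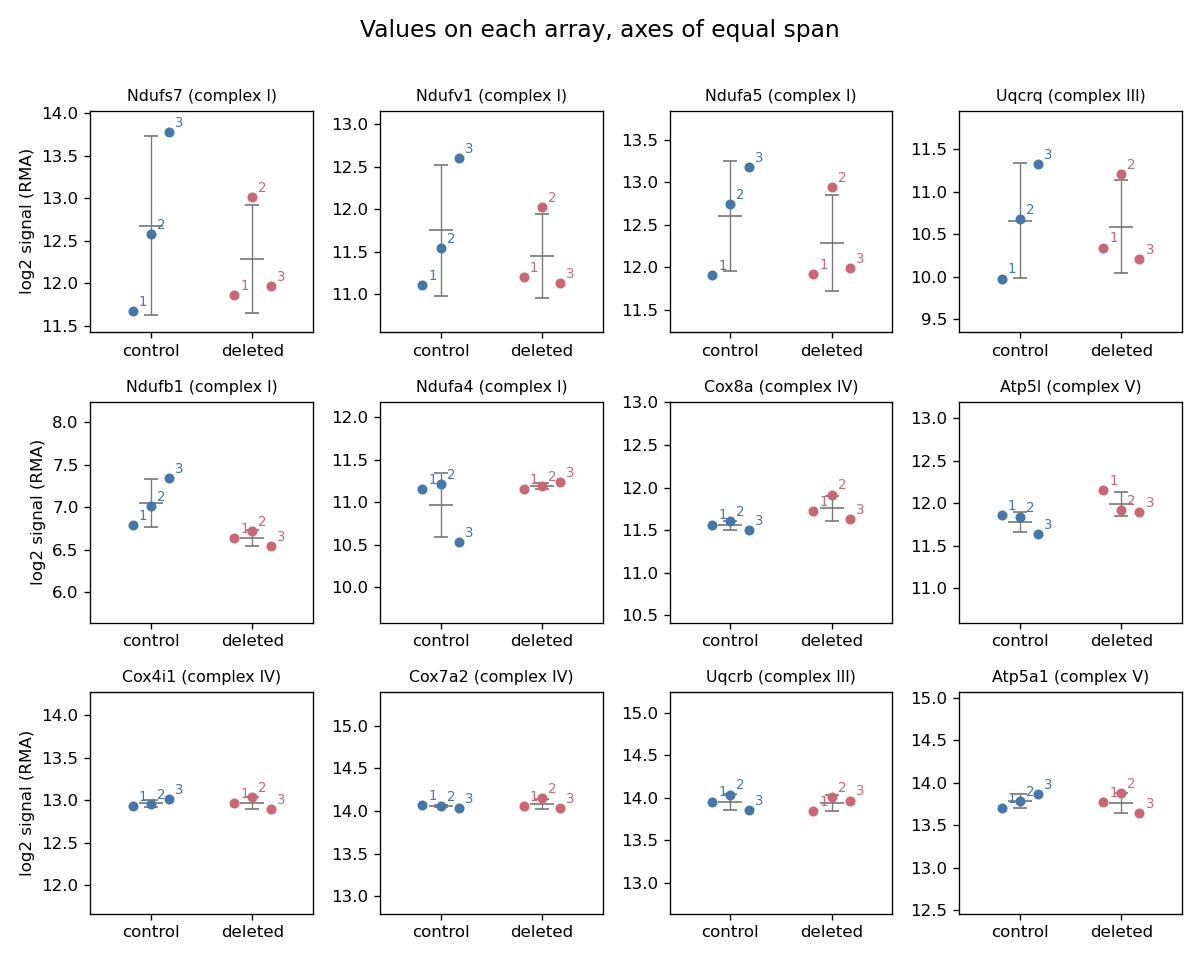
Log2 RMA signal (y axis, each panel spanning the same number of units) of 12 genes in control and deleted samples, with each array as a numbered point and the mean with its SD over 3 arrays in grey. Ndufs7, Ndufv1, Ndufa5 and Uqcrq stand high in control replicate 3 and deleted replicate 2, Ndufb1, Cox8a and Atp5l do not overlap between the groups, and Cox4i1, Cox7a2, Uqcrb and Atp5a1 stay within 0.24 over the 6 arrays.

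Complex III, the cytochrome bc1 complex that passes electrons from ubiquinol to cytochrome c, was high and low on the same arrays, with a mean deviation of 0.20 in control replicate 3 and 0.28 in deleted replicate 2. Uqcrq, a small accessory subunit, read 9.98, 10.68 and 11.33 in control and 10.35, 11.21 and 10.21 in deleted samples, a range of 1.34 with a difference of only -0.07 (SE 0.39). Uqcrc2, a core protein, read 12.90, 13.27 and 13.80 in control and 13.06, 13.50 and 12.89 in deleted samples (difference -0.17, SE 0.27). Both were high on control replicate 3 and deleted replicate 2. The other core protein, Uqcrc1, had another order, at 10.45, 10.34 and 10.18 in control and 10.98, 10.51 and 10.16 in deleted samples (difference 0.23, SE 0.22). Its highest value was deleted replicate 1, which was among the low arrays for most of the genes. Uqcrfs1, the Rieske iron-sulfur protein, differed by -0.03 (SE 0.20) and Uqcr10 by -0.16 (SE 0.18). Uqcrb was bright, at 13.84 to 14.04, with a range of 0.20.

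Complex IV, cytochrome c oxidase, transfers the electrons to oxygen, and several of its nuclear subunits exist as isoforms of which one is broadly expressed and the other belongs to lung, muscle or testis. The broadly expressed Cox4i1 was among the genes with the narrowest range, at 12.93, 12.95 and 13.01 in control and 12.97, 13.04 and 12.90 in deleted samples (difference 0.00, SE 0.13). Its partner Cox4i2, known from lung and induced in hypoxia, read 7.55, 7.87 and 8.84 in control and 8.28, 8.62 and 7.99 in deleted samples (difference 0.21, SE 0.34). The range was 1.28 for the probe set of Cox4i2 and 0.13 for that of Cox4i1. Without control replicate 3 the difference of Cox4i2 was 0.59 (unadjusted p = 0.041, adjusted p = 0.99995 by limma).

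The ranges of the forms of a subunit come from different probe sets and are given as descriptions, with no order between them. Cox6a1 ranged over 0.19 (difference 0.01, SE 0.14) and its muscle form Cox6a2, read at 7.62 to 7.92, over 0.30 (difference -0.03, SE 0.14). Cox6b1 read 13.05, 13.30 and 13.73 in control and 12.98, 13.52 and 13.00 in deleted samples and was high on the same 2 arrays as complex I (difference -0.19, SE 0.23). Its testis form Cox6b2 was high on control replicate 3 alone, with 8.47 beside 6.90 to 7.45 on the other 5 arrays (difference -0.21, SE 0.37). Cox7a2 had the narrowest range of the 76 genes, 0.11, and a second probe set of Cox7a2 was between 13.08 and 13.25. Cox7a2l, known for joining complexes III and IV in supercomplexes, read lowest on deleted replicate 1, at 12.00 against 12.48 to 12.74 elsewhere (difference -0.14, SE 0.21).

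Cox8a, the broadly expressed form of the smallest subunit, read 11.56, 11.60 and 11.50 in control and 11.72, 11.92 and 11.63 in deleted samples. All deleted values lay above all control values, as in 3.36% of all genes, and the difference of 0.20 (SE 0.14) did not pass the test. A second probe set of Cox8a at 11.00 to 11.45 differed by 0.15, with overlap. The testis form Cox8c was dim, at 6.46 to 6.68 (difference -0.01, SE 0.14). Cox7b2, also known from testis, was near the floor of the arrays at 3.71 to 4.18 except for 5.17 on deleted replicate 2, so that its difference of 0.42 (SE 0.36) rested on 1 array and was -0.01 without it. Cox5a, a nuclear subunit that joins early in assembly together with Cox4, differed by 0.07 (SE 0.17).

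Complex V, the ATP synthase, had the smallest mean deviation of the complexes on control replicate 3, 0.04, against 0.21 in deleted replicate 2. The alpha and beta subunits of the catalytic head had narrow ranges at a high signal, 0.24 and 0.35. Those of Atp5c1 (0.52), Atp5d (0.74) and Atp5e (0.50) were wider. Atp5a1 (alpha) read 13.71, 13.79 and 13.87 in control and 13.77, 13.88 and 13.64 in deleted samples (difference -0.02, SE 0.14). Atp5b (beta) read 13.08, 13.17 and 12.97 in control and 13.24, 13.32 and 13.05 in deleted samples (difference 0.13, SE 0.14). The genes of subunit c, which forms the rotor ring and is encoded by several genes for 1 mature protein, differed by 0.05 (Atp5g1, SE 0.18), 0.10 (Atp5g2, SE 0.14) and 0.09 (Atp5g3, SE 0.14), all within their spread.

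Atp5l, a small membrane subunit (subunit g), read 11.87, 11.83 and 11.64 in control and 12.15, 11.92 and 11.90 in deleted samples. It and Cox8a were the 2 genes of the 76 in which the deleted values were all higher, and its difference of 0.21 (SE 0.15) did not pass the test either. In the other direction Atp5j2 (subunit f) read 12.81, 13.36 and 13.67 in control and 12.79, 13.51 and 12.86 in deleted samples (difference -0.23, SE 0.28). Atp5d (delta) read 12.98, 13.30 and 13.57 in control and 12.83, 13.46 and 12.95 in deleted samples (difference -0.20, SE 0.23). These 2 were high on the same arrays as most genes of complex I, whereas Atp5l was not. Control replicate 3 was the lowest control array in 6 of 17 genes of complex V (35.3%), among them Atp5b, Atp5g2, Atp5g3 and Atp5l, a share near the 37.2% of all genes, and in 3 of 36 genes of complex I (8.33%).

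How firmly a value can be read also depended on the probe set. Of the 46 genes with more than 1 probe set, 23 had probe sets that differed in the sign of the difference and 23 had probe sets of a single sign. Ndufs8, with 6 probe sets, ran from -0.22 to 0.14, and its 2 brightest (-0.21 and -0.22) gave nearly the same values on all arrays. A difference larger than the gene's own SD within groups was seen in 5 of the 76 genes (Ndufb1, Ndufb4, Cox8a, Atp5l and Atp5b) and in 3817 of all 18193 genes. The median SD within groups was 0.25 for the 76 genes and 0.22 for all genes.

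Genes around the chain were read from lists of complex II, cytochrome c and c1, assembly, import, citric acid cycle, mitochondrial DNA upkeep, regulators and carriers. No gene of them passed the adjusted test. Complex II had 1 of 4 genes lower and 3 higher, the largest difference being that of Sdhc, a membrane anchor, at 0.18 (SE 0.15). Sdhb, its iron-sulfur subunit, was high on the same arrays as complex I, at 10.71, 11.24 and 11.74 in control and 11.04, 11.63 and 10.91 in deleted samples, and so did Cyc1, cytochrome c1 of complex III, at 10.91, 11.21 and 11.78 beside 11.08, 11.53 and 10.89. Cycs, cytochrome c itself, did not, and was lowest on control replicate 3 with 11.78 against 12.13 to 12.30 (difference 0.23, SE 0.16). Of the 13 subunits encoded in mitochondrial DNA only ND5 had a probe set here. It read 13.94, 13.85 and 13.58 in control and 13.94, 13.76 and 13.95 in deleted samples, lowest on the 2 arrays where most nuclear subunits were high (difference 0.09, SE 0.15).

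Assembly factors had 21 of 42 genes lower and 21 higher, with the largest difference in Ndufaf6 (0.49, SE 0.22). Import genes had 7 of 18 lower and 11 higher, with the largest in Timm17b, a channel subunit of the inner membrane, at -0.52 (SE 0.37). Citric acid cycle genes had 11 of 16 lower and 5 higher (largest Idh3a, 0.26, SE 0.13), and carriers and antioxidant genes 8 of 13 lower and 5 higher (largest Ucp3, -0.33, SE 0.15). Genes of mitochondrial DNA upkeep and transcription were even, at 7 of 14 each way, although Polrmt, the mitochondrial RNA polymerase, had the widest contrast at 9.17, 9.47 and 11.15 in control and 8.14, 9.88 and 8.87 in deleted samples (difference -0.97, SE 0.61). Of the regulators 4 of 14 were lower and 10 higher. Ppargc1a, the coactivator PGC-1alpha that drives mitochondrial biogenesis, had an unadjusted p of 0.032 by limma (adjusted p = 0.9999) with 6.16, 6.83 and 6.65 in control and 7.03, 7.36 and 6.95 in deleted samples. All its deleted values were above all control values at a low signal (difference 0.57, SE 0.21). Whether Ppargc1a bore on the subunit genes was not tested. Ppara, a dim gene, differed by 0.59 (SE 0.26).

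**Figure D4:**
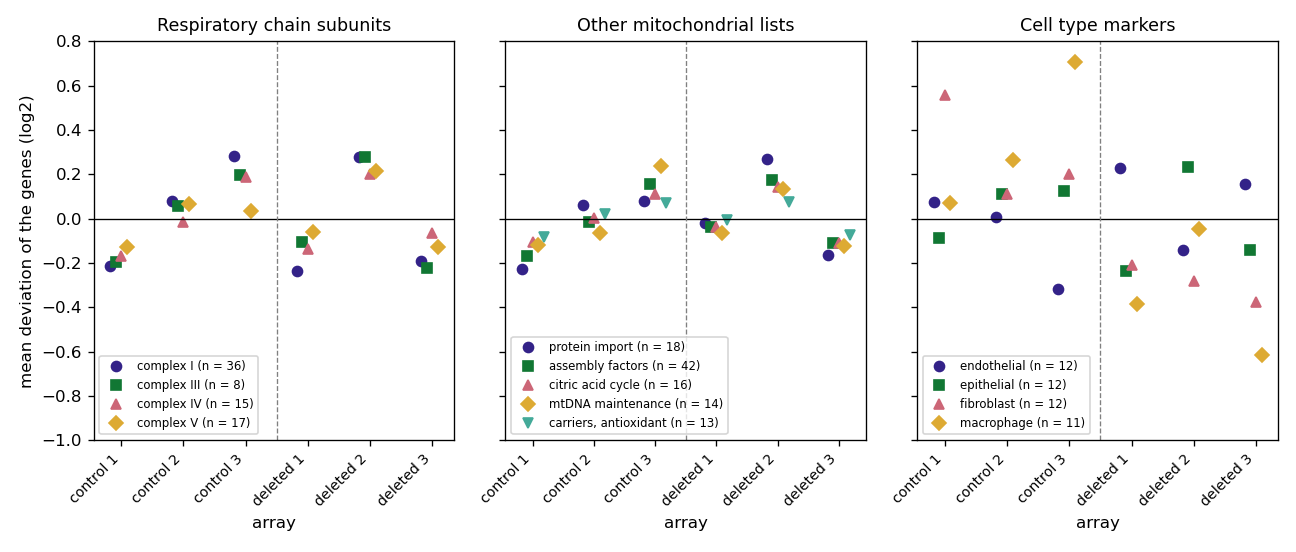
Mean deviation of the genes of a list from their own means over the 6 arrays (y axis, log2 scale) on each array (x axis), for the 4 complexes, for other mitochondrial lists and for cell type markers, with the number of genes in the legend. The complexes and the import list are high on deleted replicate 2 and low on control replicate 1, epithelial markers rise and fall with them, and endothelial markers are lowest on control replicate 3 at -0.32.

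Other measures moved with the order of the arrays. The import list had a mean deviation of -0.23, 0.06 and 0.08 in control and -0.02, 0.27 and -0.17 in deleted replicates 1 to 3, and the assembly list -0.17, -0.01 and 0.15 in control and -0.04, 0.17 and -0.11 in deleted replicates. Epithelial markers stood at -0.09, 0.11 and 0.12 in control and -0.24, 0.23 and -0.14 in deleted replicates, the same 3 arrays being above their mean as for the subunit genes. Endothelial markers ran the other way at 0.07, 0.01 and -0.32 in control and 0.23, -0.14 and 0.15 in deleted replicates. Of the 12 markers each, 9 epithelial ones had a lower mean in deleted samples and 11 endothelial ones a higher mean, and none of either list passed the test. The mean signal of the list lay between 12.15 and 12.36 in control and between 12.00 and 12.47 in deleted samples for epithelial markers, and between 12.04 and 12.43 and between 12.22 and 12.59 for endothelial markers, so that both groups overlapped.

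The signal of the 3′ over the 5′ probe set, a measure of RNA integrity and amplification, was highest on control replicate 3, with a log2 ratio of 1.31 for Gapdh against 0.75 to 1.01 on the other 5 arrays and of 1.67 for Actb against 0.99 to 1.29. On deleted replicate 2 it was 0.85 and 1.14, within the range of the remaining arrays. All 12 fibroblast markers and all 11 macrophage markers had lower means in deleted samples, with median differences of -0.53 and -0.73. Their list means did not overlap between the groups, unlike those of the subunit genes, but none of these markers passed the adjusted test. Col14a1, Dpep1 and C1qb of these lists are among the genes that the study reported as different on these same arrays. The part of epithelial, endothelial, fibroblast or macrophage RNA and of RNA integrity in the values of the subunit genes was not tested.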

How the data were processed

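CD31-sorted mammary endothelial cells of 6 mice were profiled, 1 array per sample. Per the labels, the authors amplified total RNA, hybridized it to Affymetrix arrays and made log2 values with RMA, which corrects background, normalizes by quantiles and summarizes each probe set. Which RMA version was used is not given. The deposited log2 table held 45101 probe sets, of which 64 array controls were left out. The array medians lay between 7.02 and 7.07, they were not scaled again, and at most 0.218% of values were identical between any pair of arrays. A single gene was annotated for 34945 probe sets, several for 932 and none named here for 9160. RefSeq held the gene of 34741 of the first kind.

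Groups were compared with the two-sided moderated test of limma 3.58.1 (R 4.3.3) over all 6 arrays without covariates and without a filter, adjusted by Benjamini-Hochberg over 45037 probe sets at 0.05. The step was tested on simulated data. The samples of a group are biological replicates per the study's text. The number of arrays limits the precision. The members and the lists of genes were chosen with earlier results of these data known, so counts are set beside the share over all genes and lists have no test. Named genes were the 3 largest differences per complex, isoform pairs, core subunits, and in each list the largest difference and those with an unadjusted p under 0.05; genes named for the width of their range were chosen after their values were seen. Motifs were counted in RefSeq promoter windows (GRCm38.p6). Results were recomputed with a filter at the median signal, another prior, array weights, centring, a further quantile normalization, blocks by identifier number, unmoderated tests, looser thresholds, the mean or the most variable probe set of a gene, and arrays left out. Figures were drawn with matplotlib.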

Additional observations from a re-analysis of the deposited data

How the results depend on the processing

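The counts of 0 calls by limma after adjustment and of 0 genes past the study's thresholds held under all 20 alternatives, of which 1 was added after seeing the data (without control replicate 3 and deleted replicate 2). The number of genes with an unadjusted p under 0.05 was 1 with array weights and with the mean over all probe sets of a gene (Ndufb1 in both), 2 with the fixed replicate block (Cox4i2 and Uqcrq) and 0 to 1 with 1 array left out. The number of genes lower in deleted samples, 48, was 13 with the fixed replicate block, which also turned the median difference of the 76 genes from -0.031 to 0.097 and that of complex I from -0.10 to 0.10, and was 24 to 60 with 1 array left out, 58 with array weights and 61 without control replicate 3 and deleted replicate 2. The identifier number is shared by only 2 pairs of arrays, so that control replicate 3 and deleted replicate 3 do not bear on the blocked difference, and the labels do not say what it marks. Over all probe sets, the deviations of arrays with a shared number correlated at 0.166 and -0.017. Those of control replicate 3 and deleted replicate 2, which share no number, correlated at 0.371. With 3 arrays in a group the deviations depend on each other, so these values do not tell whether the numbers pair the samples. Whether they do was not tested, and the main comparison was made without pairs. Settings that changed only the filter, the prior, the test or the symbols left a difference as it was and could not turn a sign. The filter also left out named genes below the median signal, such as Ndufb1. Of the 31 named genes 7 kept their sign under each of up to 19 settings. The other 24 changed it at least once, 17 of them with 1 array left out. The cause was not tested.

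The median difference with 1 array left out lay between -0.18 and 0.031 for all 76 genes, -0.26 and 0.019 for complex I, -0.26 and 0.065 for complex III, -0.031 and 0.039 for complex IV and -0.096 and 0.10 for complex V. The fixed replicate block turned Ndufs7 to 0.31, Ndufa5 to 0.11, Uqcrc2 to 0.19, Cox6b2 to 0.19, Atp5j2 to 0.065, Atp5d to 0.0058, Cox6a1 to -0.068, Cox6b1 to 0.080, Ndufa4 to -0.0065, Ndufv1 to 0.29, Uqcrfs1 to 0.057 and Atp5a1 to 0.080. Array weights turned Cox6a1 to -0.061, Cox6a2 to 0.088, Atp5g1 to -0.12, Atp5g2 to -0.012 and Cox5a to -0.046, a further quantile normalization Cox4i1 to -0.0034 and Cox6a1 to -0.0077, centring Cox8c to 0.0046, the mean over probe sets Cox8c to 0.057, and the probe set with the highest variance Cox8c to 0.13 and Atp5g1 to -0.019. Leaving out control replicate 3 and deleted replicate 2 turned Cox6b2 to 0.19, Cox4i1 to -0.0070, Cox6a1 to -0.064, Cox6a2 to 0.0039, Cox7a2 to -0.013, Ndufa4l2 to -0.0074, Atp5g1 to -0.087, Atp5g2 to -0.016, Atp5g3 to -0.0050 and Cox5a to -0.11, and moved Cox7a2l to -0.31. The ranges of the genes whose sign changed with 1 array left out were -0.90 to 0.15 for Ndufs7, -0.38 to 0.064 for Uqcrc2, -0.0095 to 0.67 for Cox7b2, -0.054 to 0.59 for Cox4i2, -0.56 to 0.22 for Cox6b2, -0.031 to 0.035 for Cox4i1, -0.037 to 0.069 for Cox6a1, -0.10 to 0.049 for Cox6a2, -0.0051 to 0.051 for Cox7a2, -0.29 to 0.075 for Cox7a2l, -0.068 to 0.042 for Cox8c, -0.21 to 0.27 for Ndufa4l2, -0.092 to 0.14 for Atp5g1, -0.62 to 0.13 for Ndufv1, -0.20 to 0.063 for Uqcrfs1, -0.082 to 0.16 for Cox5a and -0.079 to 0.040 for Atp5a1. Atp5g2 and Atp5g3 ranged from 0.031 to 0.17 and from 0.010 to 0.14.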

Other observations

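The muscle isoforms that the rule left out, Cox8b and Cox7a1, had lower means in deleted samples. Cox8b, known from heart and skeletal muscle, read 7.75, 8.02 and 9.21 in control and 6.89, 6.99 and 7.74 in deleted samples. All deleted values lay below all control values, with a difference of -1.12 (SE 0.41, unadjusted p = 0.029 and adjusted p = 0.9999 by limma). The difference thus passed the study's thresholds, as 0.0934% of all genes did, but not the adjusted test. Cox8b is also in the study's own list of genes that differed in these endothelial cells. Cox7a1 read 7.40, 8.02 and 7.94 in control and 7.26, 7.66 and 7.42 in deleted samples, a difference of -0.34 (SE 0.21). Of the 14 muscle markers, to which both genes belong, 6 were lower and 8 higher, and the median difference was 0.02. Only 3 of the 14 lay above the median signal of the arrays, namely Cox8b, Cox7a1 and Mb. All 3 had lower means in deleted samples, with a difference of -0.19 (SE 0.29) for Mb. The median of the list thus rests mostly on dim probe sets.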
